A study of Mus musculus with 34 samples.

Results

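Cholesterol is built from acetyl units along one chain of enzymes, and this account follows 6 of those enzymes and the 2 genes for the SREBP transcription factors in muscle and liver of mice with altered muscle glycogen synthase. The members were taken as every probe set annotated with 1 of 8 gene symbols: Hmgcs1, Idi1, Fdps, Fdft1, Sqle, Hsd17b7, Srebf1 and Srebf2. These are 8 of 12393 genes that the annotation pairs with a probe set of 1 symbol. They gave 18 probe sets of 22690 on the array, namely 4 each for Hmgcs1 and Fdft1, 2 each for Idi1, Fdps, Hsd17b7 and Srebf2, and 1 each for Sqle and Srebf1. A probe set is a group of short probes that reads 1 transcript, and its value is a fluorescence intensity on a linear scale. The suffix x_at marks probe sets whose probes can also bind related transcripts.

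The 34 arrays fell into 8 groups. Knockout (KO) mice lacking muscle glycogen synthase, aged 3 months, gave anterior tibialis (4 arrays), medial gastrocnemius (3) and liver (4), against wild-type (WT) mice of the same age with 4, 5 and 4 arrays. GSL30 mice, which overexpress muscle glycogen synthase, gave medial gastrocnemius at 8 months (5 arrays, against 5 from WT mice). The labels name a mixed C57BL6/129SV strain for tibialis only, and they name neither the promoter behind the GSL30 overexpression nor the source animal of each array, so p-values measure the spread between these arrays. The labels number the arrays in 1 run across the groups of a tissue, and the replicate numbers used here only name the arrays of a group in accession order. Each tissue and age formed its own set of arrays, so tissue or age and array set cannot be told apart.

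The gene for muscle glycogen synthase, Gys1, was read first. Where its probes lie relative to the deleted part is unknown here, so it checks the labels only that far. The brighter Gys1 probe set read 34.2 to 165 in KO muscle against 3955 to 9958 in WT muscle at 3 months, and 7896 to 10404 in GSL30 against 5840 to 7185 in WT at 8 months. Liver arrays read 18.6 to 72.2, so the muscle gene was dim there in KO and WT alike. Summed skeletal muscle markers were at least 353927 in every muscle array and at most 2978 in liver, so the arrays separated into muscle and liver as labelled, but the gastrocnemius arrays at 3 months also held liver transcripts. Alb, the albumin gene, read 17929 to 42208 in KO and 19232 to 245380 in WT gastrocnemius at 3 months, against 337 to 497 in KO and 319 to 510.1 in WT tibialis. WT gastrocnemius replicate 2 stood apart: its Alb level of 245380 was above that of every liver array (54217 to 73160), its skeletal marker sum was 1578880, and its actin 3'/5' probe ratio, a sign of RNA quality, was 0.44. Each fit that this array enters was run with and without it.

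Hmgcs1 makes HMG-CoA at the entry to the pathway. Idi1 converts isopentenyl diphosphate to its isomer, and Fdps joins these units into farnesyl diphosphate. Fdft1 condenses farnesyl diphosphate to squalene, Sqle oxidises squalene, and Hsd17b7 acts as a sterol ketone reductase in the steps after the ring is closed. SREBP-2, from Srebf2, is known chiefly for driving cholesterol synthesis genes, and SREBP-1, from Srebf1, for driving fatty acid synthesis genes. Both are made as membrane proteins that the escort protein SCAP carries to the Golgi for cleavage when sterols are low, while INSIG proteins retain them when sterols are plentiful. Liver is a main site of cholesterol synthesis.

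Promoter sequences are shown because 6 of the members lay high together in 1 liver array. Of the genes printed below, Hmgcs1 and Idi1 were among those 6, and Srebf2 and Hsd17b7 were not. Sequences of the 250 bases before an annotated start came from RefSeq on build GRCm38.p6 for 5 of the 8 members (7 windows, 3 of them for Srebf1). They are printed for Hmgcs1, Idi1, Srebf2 and Hsd17b7, 5′ to 3′ on the gene's strand, with capitals marking the sterol regulatory element core CACCCCA or the CCAAT box, on either strand (the reverse forms read TGGGGTG and ATTGG). The SREBPs bind sterol regulatory elements, and NF-Y binds CCAAT.
Hmgcs1, chr13:119690101-119690350, plus strand: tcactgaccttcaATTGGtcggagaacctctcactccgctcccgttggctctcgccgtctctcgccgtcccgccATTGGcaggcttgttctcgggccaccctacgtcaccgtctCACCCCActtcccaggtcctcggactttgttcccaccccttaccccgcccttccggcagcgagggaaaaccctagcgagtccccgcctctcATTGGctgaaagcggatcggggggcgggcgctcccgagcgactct
Idi1, chr13:8885356-8885605, plus strand: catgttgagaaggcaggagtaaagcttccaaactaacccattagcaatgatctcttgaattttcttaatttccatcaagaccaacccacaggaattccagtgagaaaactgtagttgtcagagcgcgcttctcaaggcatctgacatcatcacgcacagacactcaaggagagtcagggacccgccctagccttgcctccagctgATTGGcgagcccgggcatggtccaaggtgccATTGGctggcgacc
Srebf2, chr15:82147019-82147268, plus strand: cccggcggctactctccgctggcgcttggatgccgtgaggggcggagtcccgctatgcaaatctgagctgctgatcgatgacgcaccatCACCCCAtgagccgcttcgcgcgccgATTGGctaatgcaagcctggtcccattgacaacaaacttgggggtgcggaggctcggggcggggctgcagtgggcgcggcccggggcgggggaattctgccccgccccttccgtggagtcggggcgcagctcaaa
Hsd17b7, chr1:169969206-169969455, minus strand: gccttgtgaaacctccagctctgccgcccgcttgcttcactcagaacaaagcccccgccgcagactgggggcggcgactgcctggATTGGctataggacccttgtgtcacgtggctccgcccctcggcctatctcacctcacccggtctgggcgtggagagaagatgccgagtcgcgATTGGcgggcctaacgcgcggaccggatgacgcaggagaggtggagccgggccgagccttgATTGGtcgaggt

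The SRE core lay 136 to 130 bases before the start of Hmgcs1 and 161 to 155 bases before that of Srebf2. Idi1 and Hsd17b7 held no such letters in these windows, nor did the 3 windows of Srebf1, which are not printed. CCAAT boxes numbered 3 in Hmgcs1, 2 in Idi1, 1 in Srebf2 and 3 in Hsd17b7. Over 32851 promoter windows of the same length, 6.685% held the SRE core and 33.85% a CCAAT box. An E-box (CACGTG), found in 6.021% of windows, lay 143 to 138 bases before the start of Hsd17b7. A match describes letters, not binding.

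In KO liver, no member passed the test against WT liver, yet 1 KO array held far more RNA for most of the pathway than the other 7 liver arrays. In KO liver replicate 1 the 10 tested probe sets of Idi1, Fdps, Sqle, Fdft1 and Hmgcs1 were 4.32 to 13.7 times the median of the other 7 arrays, and Srebf1 was 3.10 times that median. Of the 3 probe sets too dim to be tested, those of Fdft1 were 3.72 and 1.59 times and that of Fdps 0.699 times it. Srebf2 was 1.57 and 1.62 times it by its 2 probe sets, and Hsd17b7 0.811 and 1.05 times. WT liver replicate 3 was next highest for most of these genes.

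Fdps, the farnesyl diphosphate synthase, read 21005, 2057, 748 and 1040.2 in KO livers, against 1571, 1396, 5217 and 2108 in WT livers. The brighter Idi1 probe set read 11092, 1449.5, 535 and 388 in KO livers, against 809, 798, 2881 and 1699 in WT livers. Sqle read 5404, 548, 593 and 460 in KO livers, against 484, 398, 1375 and 903 in WT livers. In each of the 3 genes the first KO array was highest, the third WT array was second, and the groups overlapped.

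The brightest Hmgcs1 probe set read 30836, 6332, 2987 and 3635 in KO livers, against 5044, 5812, 11429 and 5772 in WT livers. Fdft1, the squalene synthase gene, read by its brightest probe set 5914, 1426, 941 and 1080.2 in KO livers, against 1052, 1048, 2299 and 1196 in WT livers. Here too the first KO array was highest and the third WT array second. The transcription factor gene Srebf1 read 4936, 1659.7, 1594 and 1565 in KO livers, against 1160.1, 1713, 1754 and 1255 in WT livers. Only the first KO array stood out, with the other 7 arrays between 1160.1 and 1754.

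The brighter Srebf2 probe set read 1406, 869, 1056 and 783 in KO livers, against 1216, 787, 1364 and 803 in WT livers. The first KO array was highest here too, but only slightly above the third WT array. The brighter Hsd17b7 probe set read 1892, 1711, 1705 and 1618 in KO livers, against 1807, 1835, 1845 and 2079.8 in WT livers. Hsd17b7 was thus the enzyme that did not stand out in the first KO array, where it ranked second of 8.

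**Figure D1:**
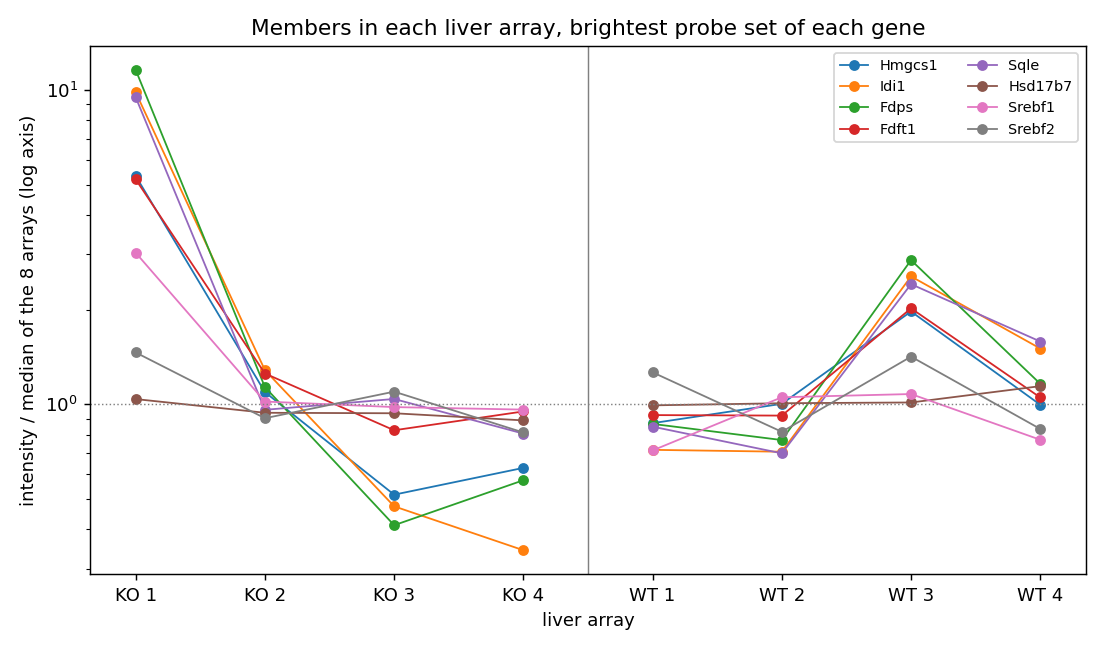
Intensity of each member's brightest probe set in the 8 liver arrays, divided by the median of the 8 (vertical log axis), with KO arrays on the left and WT arrays on the right. KO 1 stands above the rest for 6 genes, WT 3 is the next highest for most of them, and Hsd17b7 stays near 1 throughout.

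The tests on group means gave no call in liver. Of 15 member probe sets above the filter on dim signals, 0 had an adjusted p under 0.05 (limma, Benjamini-Hochberg adjusted over the 13576 tested), and 0 had an unadjusted p under 0.05, against 1131 of all 13576. Over all probe sets 0.00737% were called. Groups without overlap were seen for 0 members, while 2.76% of all probe sets were higher without overlap and 2.41% lower. The fitted differences, on the log2(value + 50) scale used for every log2 difference here, were 0.13 (SE 0.89, adjusted p = 0.978) for Fdps, 0.05 (SE 0.88, adjusted p = 0.991) for Idi1 and 0.54 (SE 0.34, adjusted p = 0.705) for Srebf1. The interval for Fdps, −1.84 to 2.11, was wide. Without KO replicate 1, the differences of Fdps (−0.89), Idi1 (−0.94 and −0.80), Sqle (−0.38), Fdft1 (−0.45 and −0.21) and Hmgcs1 (−0.46 to −0.71) were all negative and that of Srebf1 was 0.15, with 0 called (adjusted p at least 0.458). With all 8 arrays the differences of these 5 enzymes were positive apart from 1 Hmgcs1 probe set, so their sign turned with 1 array.

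Counted per array, 11 of 15 member probe sets in KO replicate 1 were over 2-fold above the median of the other 7 arrays, against 1.26% of all probe sets in that array. In WT replicate 3 the count was 8 of 15, against 0.457%. In the remaining 6 liver arrays it was 0 or 1. Over 2-fold below the median of the other 7 were 3 of 15 in KO replicate 3, against 1.22% of all. In KO replicate 4 it was 2, against 0.935%, in WT replicate 2 it was 1, against 0.884%, and in KO replicate 1 it was 0. These counts are descriptions, since KO replicate 1 was singled out for its levels. By that ratio the members took ranks 2 to 6 of 13576 in KO replicate 1 with Idi1, Fdps and Idi1 again, Sqle and Fdft1, behind Hsd3b5, a steroid dehydrogenase gene of liver (21.8-fold). Its share of liver transcripts was 95.3% of the WT liver mean (95.2 to 103% over the KO livers). Its actin 3'/5' ratio of 1.33 lay within the liver arrays' range of 1.11 to 1.44. Its GAPDH 3'/5' ratio of 0.910 was the highest of the liver arrays (0.763 to 0.907 in the other 7), and its median intensity of 296.35 was the lowest of the 34 arrays. Their part in the levels of that array was not tested.

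The rest of the pathway was read in the same way from a list of 15 other enzymes, of which 11 genes were tested in liver, and the genes named from it were chosen after their values were seen. Each gene was counted by its brightest probe set. In KO replicate 1, 7 of the 11 were over 2-fold above the other arrays: Cyp51 (7.42), Msmo1 (7.32), Nsdhl (6.20), Dhcr7 (4.37), Lss (3.60), Pmvk (2.61) and Sc5d (2.10). Mvd was not among them by that probe set, but its other one was at 5.00-fold. Mvk, too dim on average to be tested, read 2020 there, against 89.1 to 553.5 in the other 7. Of 10 tested fatty acid synthesis genes, 4 were over 2-fold above: Thrsp (5.02), Acly (2.19), Fasn (2.17) and Mid1ip1 (2.04). None of the 3 SREBP processing genes tested (Scap, Insig2, Mbtps1) was. Of 8 genes of sterol uptake and efflux, Stard4, a sterol carrier, was at 2.48-fold and Npc1, a lysosomal cholesterol transporter, at 0.472-fold.

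Members also varied together over the liver arrays. Correlations were taken between deviations from group means over 8 arrays for 28 pairs of genes (1 probe set each, the brightest), with exact permutation p adjusted over the pairs. Exact means that every order of the arrays was counted, but deviations within a group depend on each other, so p is approximate. The arrays include the 1 singled out for its levels, and pairs of other genes were not taken, so these correlations are descriptions. All 10 pairs of the 5 enzymes Hmgcs1, Idi1, Fdps, Fdft1 and Sqle passed, with Pearson r of 0.925 to 0.995 (exact adjusted p 0.000694 to 0.00995). Srebf1 passed with each of them (r 0.868 to 0.933, exact adjusted p at most 0.0224). Srebf2 (r 0.63 to 0.699) and Hsd17b7 (r 0.575 to 0.722) passed with none. By Spearman's rho 9 of the 28 pairs passed. These relations rested on few arrays: without the 2 arrays farthest from the median 3 pairs passed, without KO replicate 1 there were 0 (enzyme pairs r 0.6 to 0.977, lowest exact adjusted p 0.05), and without both that array and WT replicate 3 there were 0 (r 0.0366 to 0.994).

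In the muscles few pairs passed. Over tibialis arrays (n = 8) only the pair Srebf1 and Srebf2 passed (r 0.947, exact adjusted p = 0.0479), though not by Spearman's rho (0.762, adjusted p = 0.969), and r was 0.656 without the 2 farthest arrays. Over gastrocnemius arrays at 3 months (n = 8) 0 of 28 pairs passed. Over those at 8 months (n = 10) 2 passed by permutation, Hsd17b7 with Srebf2 (r 0.846, adjusted p = 0.0304) and Hmgcs1 with Fdps (r −0.792, adjusted p = 0.0304), and 0 by Spearman's rho.

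In GSL30 gastrocnemius at 8 months, Hsd17b7, the sterol ketone reductase, was the member that passed the test, and it was higher than in WT. The brighter Hsd17b7 probe set read 1181, 1583, 1198, 1176 and 1637 in GSL30 arrays, against 843, 874, 819, 886 and 505 in WT arrays. Every GSL30 array was above every WT array. The difference was 0.76 on the log2 scale (SE 0.17, 95% interval 0.39 to 1.13, adjusted p = 0.0287 by limma), or 1.69-fold. This was 1 of 14 tested member probe sets, against 4.31% of all probe sets called, so the share called was near the background.

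The dimmer Hsd17b7 probe set read 499, 272, 439, 279 and 469.5 in GSL30 arrays, against 248, 342, 146, 211 and 160.3 in WT arrays. Its groups overlapped, and its difference of 0.71 (SE 0.22, adjusted p = 0.0826) had the same sign but did not pass. The call on the brighter probe set was lost when a score of hepatocyte markers entered the fit (0.84, adjusted p = 0.229). It was also lost without the 2 arrays of highest hepatocyte score, WT replicates 2 and 5 (0.63, adjusted p = 0.0778). Replicate 5 was also the lowest array of this probe set, and its liver share of 1.58% was below that of WT replicate 4 (1.66%). Without replicate 5 alone the call held (0.62, adjusted p = 0.0363), as it did without replicate 2 alone (0.80, adjusted p = 0.0390). The call was lost too without the dim filter (adjusted p = 0.0638) and without any 1 of 4 arrays (WT replicates 1 and 3, GSL30 replicates 2 and 5, adjusted p 0.0516 to 0.0761). It held with the liver share subtracted (0.79, adjusted p = 0.0273).

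Other cell markers moved in the same arrays. Slow fibre markers fell in GSL30 for 6 of 6 genes (summed intensity 16999 to 34346 in GSL30, against 40300 to 52028 in WT), endothelial markers for 2 of 5 (6258.5 to 7464 in GSL30, against 9488 to 11779 in WT) and hepatocyte markers for 3 of 7 tested (8538 to 15490 in GSL30, against 15797 to 38030 in WT). Adipocyte and fibroblast markers fell for 1 of 6 each, with all 6 of each list negative (medians −0.57 and −0.18). Of 12 hepatocyte marker genes 0 were at 0 in any array. Their part in the Hsd17b7 result was not tested beyond the fits above. In bulk tissue, fewer cells of a type and less RNA per cell cannot be told apart.

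Hmgcs1 lay lower in GSL30 by all 4 of its probe sets, without a call. Its x_at probe set read 578, 1029.6, 959.7, 1225 and 703 in GSL30 arrays, against 1437, 1231, 1606, 1395 and 2219.5 in WT arrays. The groups did not overlap, and the difference of −0.80 (SE 0.21, adjusted p = 0.0503) stood just short of the threshold. The other 3 differed by −0.55, −0.67 and −0.50 (adjusted p = 0.163, 0.105 and 0.0792). The x_at probe set passed in 4 other fits, with a pseudocount of 200, with a filter at the 60th percentile, with trended and robust eBayes and with array weights (adjusted p 0.0301 to 0.0425). Over all 12 other settings of the fit, those with liver RNA taken into account included, its adjusted p ran up to 0.213. It passed too without GSL30 replicate 4, and its adjusted p ran over 0.0285 to 0.113 when 1 array at a time was left out.

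Fdps read 1171, 962, 1009, 1040.1 and 1084 in GSL30 arrays, against 858, 952, 864, 884 and 658 in WT arrays. All GSL30 arrays were above all WT arrays, but the difference of 0.31 (SE 0.12, adjusted p = 0.157) did not pass. Non-overlapping groups with the mutant higher were seen for 2 of 14 member probe sets (Hsd17b7 and Fdps), against 3.79% of all, and with the mutant lower for 1 (Hmgcs1), against 3.59%. The other members did not pass. Sqle differed by −0.01, Srebf1 by −0.07, Srebf2 by −0.43 and −0.06, and Fdft1 by 0.08, 0.46 and 0.02 (adjusted p at least 0.318). Idi1 was too dim to be tested, and its brighter probe set read 169, 228, 180.1, 215 and 191 in GSL30 arrays, against 207, 219, 280.3, 161 and 251 in WT arrays.

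**Figure D2:**
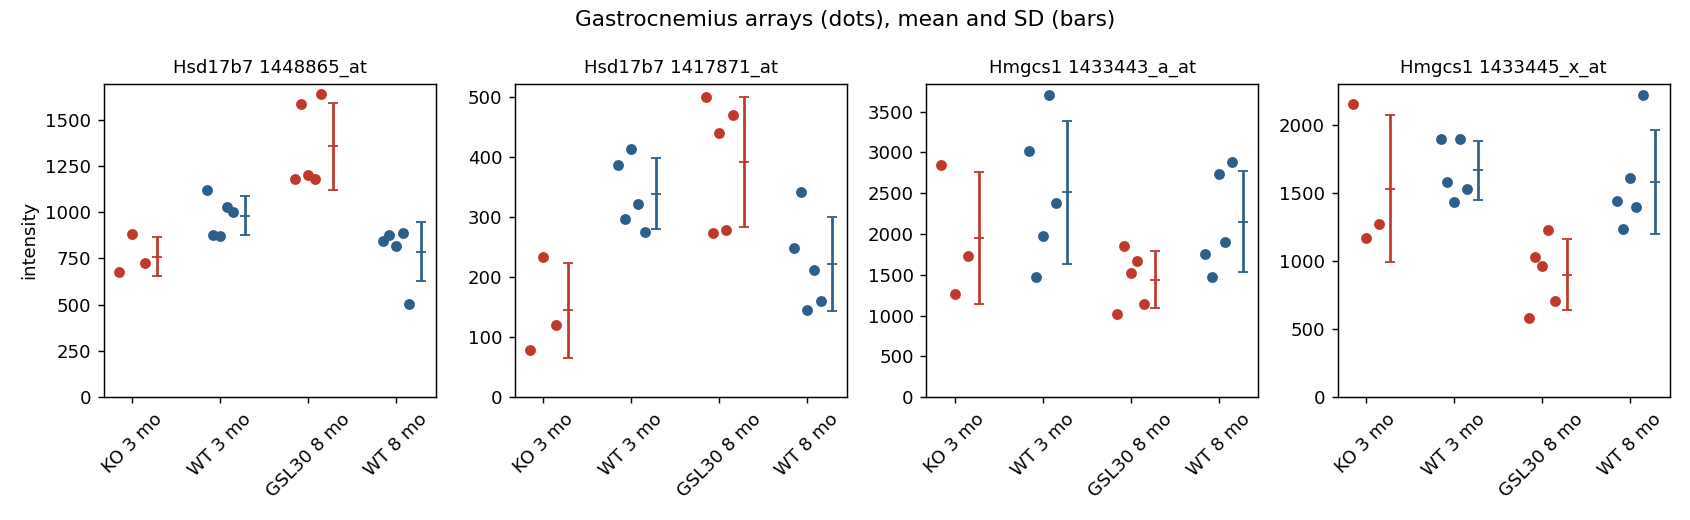
Intensity of 2 Hsd17b7 and 2 Hmgcs1 probe sets in every gastrocnemius array (dots), with the mean and SD of each group (bars), on a linear axis from 0. In the first panel, the brighter Hsd17b7 probe set, all GSL30 arrays lie above their WT arrays, and in the second, the dimmer one, all KO arrays lie below theirs, with 3 and 5 arrays per group at 3 months and 5 each at 8 months.

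In KO gastrocnemius at 3 months Hsd17b7 lay in the other direction from GSL30, and the difference between both effects passed for its brighter probe set. The dimmer Hsd17b7 probe set read 79, 233 and 121 in KO arrays, against 387, 297, 413, 321 and 275 in WT arrays. The KO arrays lay below all WT arrays, but it was too dim in this comparison to be tested. The brighter one read 676, 879 and 723 in KO arrays, against 1121, 876, 873, 1027 and 1002 in WT arrays, a difference of −0.35 (SE 0.14, adjusted p = 0.408). The GSL30 effect minus the KO effect was 1.11 (SE 0.23, adjusted p = 0.015) for the brighter probe set, by limma over 18 arrays, where 2.30% of all probe sets were called. For the dimmer one it was 1.78, given without its test, since it passed the dim filter there with GSL30 arrays in the mean and not in the KO comparison. GSL30 and KO arrays came from mice of different age.

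Markers of other cells differed in the same arrays. Slow fibre sums were 63239 to 85492 in KO gastrocnemius, against 26775 to 44528 in WT at 3 months, with 6 of 6 genes positive (median 1.06) and 1 called. Endothelial sums were 9613 to 11230 in KO, against 6493 to 8271 in WT, with none of 5 called. Neither pair of groups overlapped. In the GSL30 effect minus the KO effect, 6 of 6 slow fibre and 3 of 5 endothelial genes were called lower. Their part in the Hsd17b7 values was not tested.

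The call on the brighter probe set did not hold without arrays of high liver RNA (0.85, adjusted p = 0.182) or with the liver share subtracted (0.79, adjusted p = 0.220). Those arrays included WT replicate 5 at 8 months, and without that array alone the call held (0.97, adjusted p = 0.0123). It held when the hepatocyte score entered the fit (adjusted p = 0.0120) and without WT gastrocnemius replicate 2 at 3 months (1.15, adjusted p = 0.0162). Leaving out 1 array at a time gave 0.97 to 1.21 for it, and its adjusted p reached 0.0588 without KO gastrocnemius replicate 1.

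No member passed in KO gastrocnemius, where the enzymes with the largest differences lay lower. Of 14 tested member probe sets 0 were called, against 0.147% of all probe sets, and 3 had an unadjusted p under 0.05, all lower, against 1545 of all 13576 in either direction. The brighter Idi1 probe set read 208, 139 and 209 in KO arrays, against 519.5, 735, 211, 754 and 243 in WT arrays, a difference of −1.07 (SE 0.40, adjusted p = 0.383). Fdps read 733, 669 and 721 in KO arrays, against 1101, 991, 887, 1267 and 738 in WT arrays, a difference of −0.45 (SE 0.17, adjusted p = 0.398). Both had groups that did not overlap, which 2.72% of all probe sets showed in that direction and 7.26% in the other, where no member did.

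The liver RNA in these arrays varied widely and is set beside these genes. The liver share is the median over 472 liver probe sets of an array's level as a percent of the WT liver mean. It was 8.26, 3.80 and 2.90% in KO arrays, against 17.8, 25.5, 5.66, 26.9 and 3.03% in WT arrays, or 4.99 ± 2.87% against 15.8 ± 11.0% (SD, n = 3 and 5, exact two-sided permutation p = 0.214, smallest possible 0.0357). At 8 months it was 1.44 ± 0.23% in GSL30 and 1.79 ± 0.52% in WT (SD, n = 5 each, exact permutation p = 0.230). Taken over the 12 hepatocyte marker genes in place of the 472 probe sets, the share at 8 months was 0.39 ± 0.18% in GSL30 and 1.26 ± 0.787% in WT (SD, n = 5 each, exact permutation p = 0.0159). At 3 months those genes gave 10.8 ± 9.50% in KO and 34.1 ± 26.3% in WT (SD, n = 3 and 5, exact permutation p = 0.250). These 3-month values lie above the shares by the 472 probe sets, which are the ones used for subtraction. The 12 hepatocyte markers were all lower in KO gastrocnemius (12 of 12 negative, median −1.48, none called). By brightest probe set 5 of the 8 members, Idi1 and Fdps among them, were lower too, and 3 (Fdft1, Srebf1 and Srebf2) were higher. The part of liver RNA in these differences was not tested beyond the fits given here.

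Over the 8 arrays at 3 months, 4 of 18 member probe sets correlated with the log2 liver share after adjustment over the 18. How many of all probe sets would do so was not tested, so the count only describes these members. Idi1 had r 0.910 and 0.908, Hmgcs1 by 1 of its 4 probe sets 0.893 and Fdps 0.879 (exact permutation, adjusted p = 0.0367 each). Spearman's rho passed for 0 (adjusted p at least 0.131). Without the 2 arrays farthest from the median share, r was 0.831, 0.750, 0.847 and 0.813, with 0 passing. At 8 months, where the share was at most 2.70%, 0 of 18 passed.

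Measured levels can be set against the share multiplied by the WT liver level. In WT gastrocnemius at 3 months that product came to 8.93 to 121% of the level of the brightest Hmgcs1 probe set and 10.5 to 66.2% of the Fdps level. In KO gastrocnemius it came to 11.7 to 21.1% for Hmgcs1 and 10.4 to 29.0% for Fdps. Subtracting it left Fdps at 0.01 and Hsd17b7 at 0.0067 in KO minus WT, and turned the 4 Hmgcs1 differences positive (0.79, 0.48, 0.32 and 0.054). The WT liver level is a mean that includes WT liver replicate 3, which read high for Hmgcs1 and Fdps. A product of 121% exceeds the measured level, so the subtraction can remove too much and its differences are rough. Without WT replicate 2 alone the differences of Idi1 and Fdps were −0.89 and −0.44, that of Hsd17b7 was −0.39, and none was called.

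**Figure D3:**
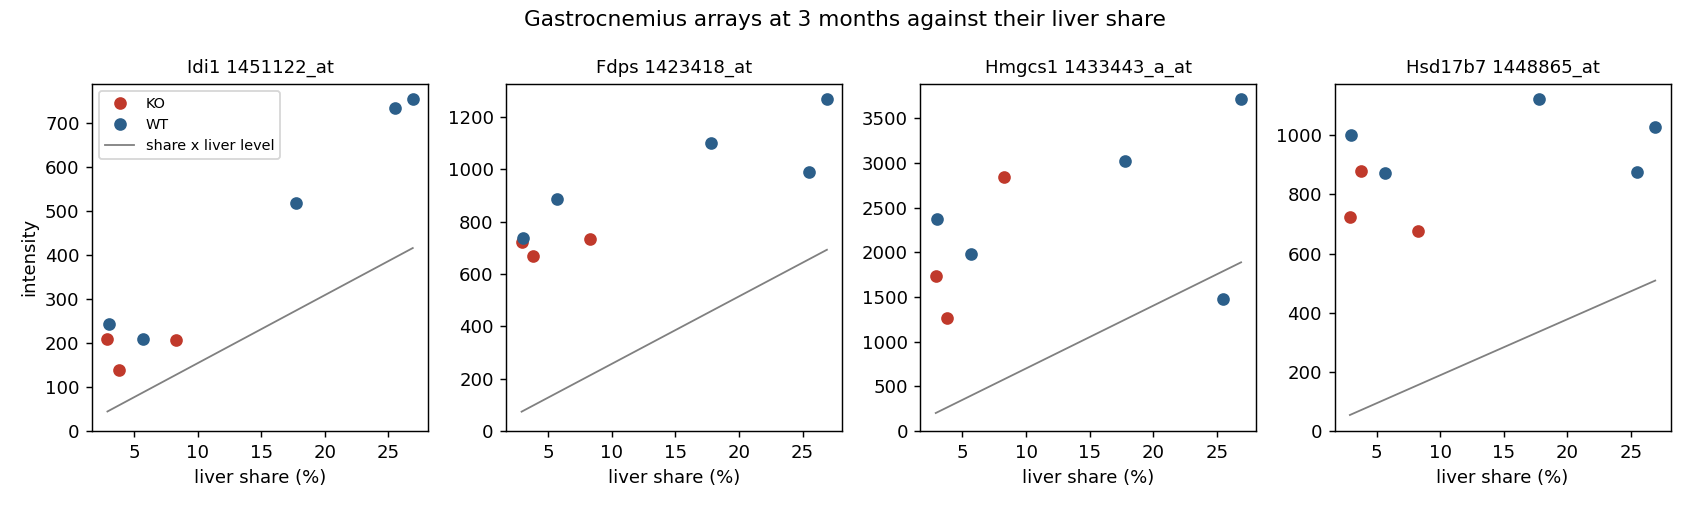
Intensity of 4 member probe sets (vertical axis, linear from 0) against the liver share in percent (horizontal axis) for KO and WT gastrocnemius arrays at 3 months, 1 dot per array, with a grey line for the share multiplied by the WT liver level. The Idi1 and Fdps dots lie higher at higher shares, which Hsd17b7 does not show, and the 3 KO arrays lie at shares of 2.90 to 8.26%.

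In KO tibialis, where liver RNA was low (share at most 1.39%), no member passed. The brighter x_at probe set of Fdft1 read 1843, 1607, 1595 and 1629 in KO arrays, against 2257, 2353, 2277 and 2091 in WT arrays. The groups did not overlap, and the difference was −0.42 (SE 0.10, adjusted p = 0.0877). It passed with a filter at the 60th percentile (adjusted p = 0.0432), but over all 9 other settings of the fit its adjusted p ran up to 0.709. The other 2 Fdft1 probe sets tested differed by −0.18 and −0.16.

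The brighter Idi1 probe set read 298, 277, 323 and 332 in KO arrays, against 371, 358, 485 and 385 in WT arrays, without overlap, a difference of −0.32 (SE 0.12, adjusted p = 0.247). Srebf1 read 1619.6, 1576, 1803 and 2151 in KO arrays, against 2087, 3225, 2389.6 and 2242 in WT arrays, with overlap, a difference of −0.46 (SE 0.16, adjusted p = 0.227). Of 14 tested member probe sets 0 were called, against 1.40% of all, and 2 had non-overlapping groups with KO lower, against 4.88% of all (0 with KO higher, against 5.20%). Hsd17b7 differed by −0.39 (SE 0.22, adjusted p = 0.433) and Hmgcs1 by 0.14, 0.25, −0.0026 and 0.15.

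Slow fibre marker sums were 35420 to 43844 in KO tibialis, against 10809 to 18164 in WT, and endothelial sums were 11463 to 13454 in KO, against 8050 to 9422 in WT. By gene, 1 of 6 slow fibre markers rose (median −0.17) and 0 of 5 endothelial markers passed (median 0.50). Their part in the member values was not tested. The KO effect in gastrocnemius minus that in tibialis passed for no member (0 of 14 called, against 0.0147% of all), nor did that in liver minus the mean of both muscles (0 of 14, against 0.685%). Srebf1 stood at 0.72 (SE 0.32, adjusted p = 0.424) in that contrast.

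**Figure D4:**
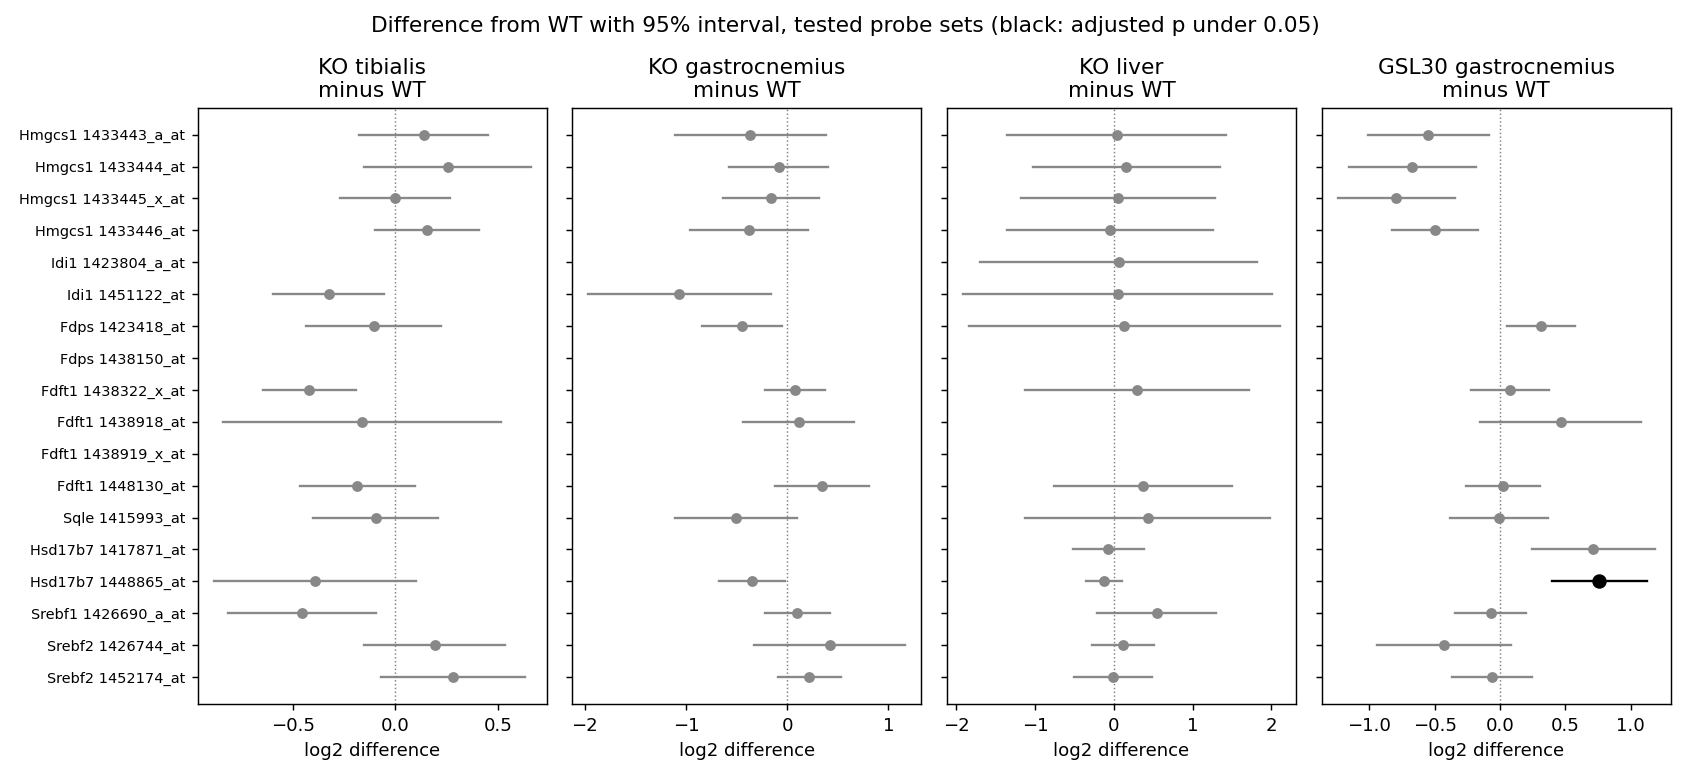
Log2 difference from WT with its 95% interval for each tested member probe set (rows) in the 4 comparisons (panels, each with its own horizontal scale), black where the adjusted p is under 0.05. The black point is the brighter Hsd17b7 probe set in GSL30 gastrocnemius, and the liver intervals of Hmgcs1, Idi1, Fdps, Fdft1 and Sqle are the widest.

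Levels differed between tissues in WT mice, where liver arrays were made from 10 µg of RNA and muscle arrays from about 5 µg, per the labels, so tissue and RNA amount cannot be told apart. WT liver exceeded WT tibialis for 10 of 14 tested member probe sets, against 3834 of all 13576 probe sets. It was below WT tibialis for 3, against 5583 of all, and 69.4% of all were called in either direction. The 10 include the dimmer Hsd17b7 probe set, which passed the dim filter with liver in the mean. On the log2 scale it averaged 9.90 in WT liver and 7.35 in WT tibialis, and it was too dim to be tested in KO tibialis. The brightest probe set of Hsd17b7 was higher in liver by 1.71, Idi1 by 1.64, Hmgcs1 by 1.62, Sqle by 1.28 and Fdps by 1.23. The brightest Fdft1 probe set stood at −1.23 and Srebf1 at −0.74, so both fell below tibialis in liver. Srebf2 was higher in liver by 0.99 with its dimmer probe set, and its brighter one, at 0.39 (SE 0.20, adjusted p = 0.105), was the 1 of 14 not called.

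WT gastrocnemius at 3 months exceeded WT tibialis in Hsd17b7 by 0.79 (SE 0.17, adjusted p = 0.00816) and differed from it by −0.62 (SE 0.11, adjusted p = 0.00363) in the brighter x_at probe set of Fdft1, 2 of 14 called, against 27.0% of all. The liver share was 3.03 to 26.9% in those gastrocnemius arrays and 0.911 to 1.23% in the tibialis arrays. WT gastrocnemius at 8 months minus 3 months gave 0 of 15 member calls, against 6.19% of all.

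**Figure D5:**
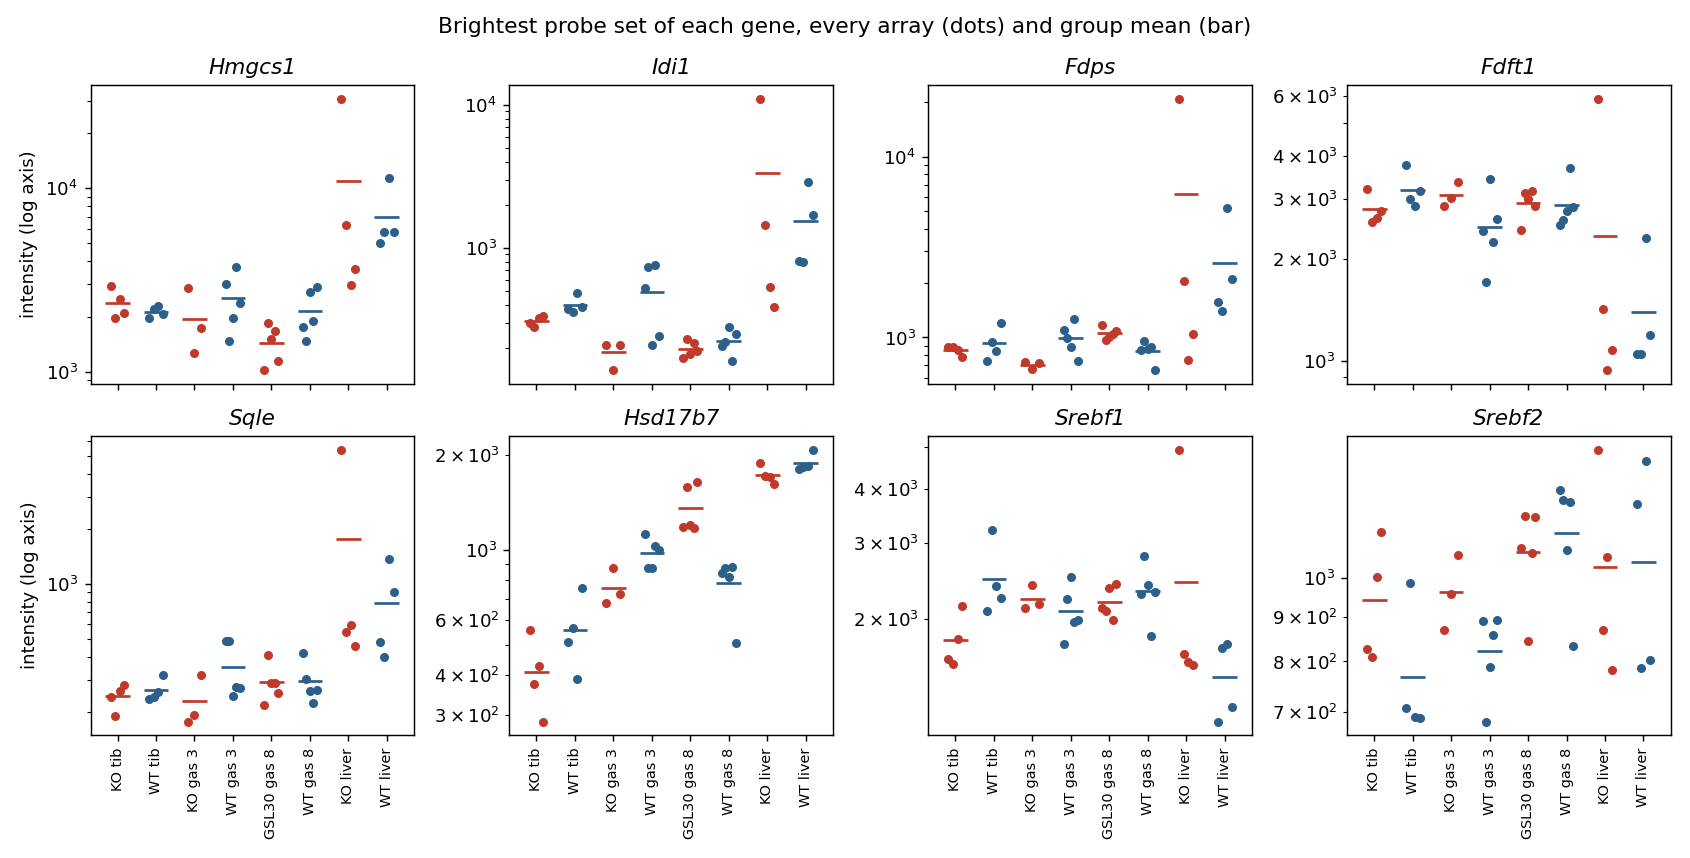
Intensity of the brightest probe set of each of the 8 genes in every array (dots) and the group mean (bar), on log axes, with the mutant group left of its WT group. The single high dot in KO liver recurs in Hmgcs1, Idi1, Fdps, Fdft1, Sqle and Srebf1, and Hsd17b7 is higher in GSL30 than in WT gastrocnemius at 8 months.

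Group means of the brightest probe sets set the order of levels. Hsd17b7 averaged 1732 ± 115 in KO and 1892 ± 126 in WT liver, 1355 ± 234 in GSL30 and 785 ± 159 in WT gastrocnemius at 8 months, 759 ± 106 in KO and 979.8 ± 106 in WT gastrocnemius at 3 months, and 411 ± 113 in KO and 556 ± 152 in WT tibialis (SD). Liver was highest and tibialis lowest. Fdps averaged 6213 ± 9878 in KO and 2573 ± 1788 in WT liver, 1053 ± 79.4 in GSL30 and 843 ± 110.2 in WT gastrocnemius at 8 months, 708 ± 33.9 in KO and 997 ± 202 in WT gastrocnemius at 3 months, and 851 ± 50.3 in KO and 933 ± 199 in WT tibialis. The SD in KO liver was larger than the mean, through replicate 1. The brightest Fdft1 probe set averaged 2340.2 ± 2391 in KO and 1399 ± 604 in WT liver, 2912 ± 296 in GSL30 and 2884 ± 468 in WT gastrocnemius at 8 months, 3087 ± 257 in KO and 2482 ± 628 in WT gastrocnemius at 3 months, and 2798 ± 292 in KO and 3192 ± 401 in WT tibialis.

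Srebf1, whose protein is known chiefly for fatty acid synthesis genes, averaged 2438 ± 1665 in KO and 1470.2 ± 306 in WT liver, 2196 ± 182 in GSL30 and 2327 ± 345 in WT gastrocnemius at 8 months, 2232 ± 145 in KO and 2090.1 ± 284 in WT gastrocnemius at 3 months, and 1788 ± 262 in KO and 2486 ± 508 in WT tibialis. The brighter Srebf2 probe set averaged 1028 ± 277 in KO and 1043 ± 292 in WT liver, 1070 ± 136 in GSL30 and 1125 ± 179 in WT gastrocnemius at 8 months, 963 ± 96.9 in KO and 822 ± 89.4 in WT gastrocnemius at 3 months, and 942 ± 152 in KO and 768 ± 146 in WT tibialis. Hmgcs1, by its brightest probe set, averaged 10947 ± 13338 in KO and 7014 ± 2964 in WT liver, 1441 ± 353 in GSL30 and 2150.3 ± 619.9 in WT gastrocnemius at 8 months, 1949.6 ± 812 in KO and 2512 ± 876 in WT gastrocnemius at 3 months, and 2366 ± 435 in KO and 2124 ± 135 in WT tibialis. The SD of Hmgcs1 in KO liver was again larger than the mean.

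The other genes of the pathway gave few calls in muscle. Of the other cholesterol synthesis enzymes, 0 of 9 genes tested passed in KO tibialis, 0 of 8 in KO gastrocnemius and 0 of 7 in GSL30, and 0 of 3 SREBP processing genes passed in each. Sc5d, which acts late in the pathway, stood at −0.99 (adjusted p = 0.248) in KO gastrocnemius, and Mvd, which makes isopentenyl diphosphate, at 0.43 (adjusted p = 0.122) in GSL30. Npc1 fell by 0.93 (adjusted p = 0.0293) in KO tibialis and Abca1, a cholesterol efflux pump, by 0.65 (adjusted p = 0.0182) in GSL30, each 1 of 8 tested genes of sterol uptake and efflux.

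Among fatty acid synthesis genes, Mid1ip1, which regulates acetyl-CoA carboxylase, rose in KO tibialis (0.94, adjusted p = 0.0374), KO gastrocnemius (1.35, adjusted p = 0.0392) and GSL30 gastrocnemius (0.89, adjusted p = 0.0106). It was the 1 of 10, 11 and 10 tested genes to rise in each. Scd2, a fatty acid desaturase, fell in GSL30 (−0.59, adjusted p = 0.0163), and Me1, the malic enzyme that yields NADPH, by 1 of its probe sets in KO tibialis (−0.86, adjusted p = 0.0380). With 1 probe set per gene, the brightest, the median difference of the list was −0.18 in KO tibialis, 0.29 in KO gastrocnemius and −0.32 in GSL30, against 0.04, 0.05 and 0.03 over all probe sets. For the members, counted in the same way, it was −0.15, −0.36 and −0.0075, and in KO liver 0.09, against 0.02.

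Genes most like each member, with the other members left out, were found by Pearson r over the 34 arrays. Values were centred on each comparison's mean, and r serves as a description. Between members, r with Idi1 was 0.882 for Fdps and 0.859 for Sqle, above that of any gene outside the members. The highest r with another member was 0.798 for Fdft1 (with Fdps) and 0.689 for Srebf1 (with Fdft1). The liver RNA of the gastrocnemius arrays was not taken out. Where a pair of values is given for a gene, the latter is without KO liver replicate 1. Dhcr7 and Nsdhl, both late enzymes of the pathway, recurred. Among genes outside the members, Nsdhl was closest to Fdps (r 0.88), Sqle (0.85), Fdft1 (0.83) and Srebf1 (0.73). Without KO liver replicate 1 these were 0.67, 0.59, 0.53 and 0.28. Dhcr7 was among the 3 closest of Fdps (0.83, and 0.61 without that array), Sqle (0.77 and 0.48) and Hmgcs1 (0.75 and 0.52). Msmo1, the sterol methyl oxidase, was among those of Fdps (0.83, and 0.82 without that array). Hmgcs1 was closest to Cyb5b, a cytochrome b5 gene (0.79, 0.74 without that array), followed by Abca8a (0.75 and 0.55). Idi1 was closest to Nudt7 (0.89 and 0.81), Selenbp1 (0.83 and 0.77) and Tlcd2 (0.83 and 0.76). Sqle was also close to Hhex (0.78 and 0.61), and Fdft1 to Tbx15 (0.78 and 0.52) and Acss2 (0.78 and 0.50), which makes acetyl-CoA from acetate. Srebf1 was also close to Thrsp (0.73 and 0.50) and Loxl1 (0.71 and 0.50). Srebf2 was closest to Col15a1 (0.71 and 0.67), Tifa (0.68 and 0.63) and Tln1 (0.67 and 0.71). Hsd17b7 was closest to Blmh (0.76 with and without it), followed by Aars (0.75) and Myoz1 (0.75), and none of these 3 was among the 3 closest genes of another member.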

How the data were processed

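RNA was extracted with TRIzol and an RNeasy cleanup and hybridised to 1-colour Affymetrix arrays, per the labels. The authors deposited 1 intensity per probe set and array on a linear scale, and which program summarised them was not given in the sources used here. Trimmed by 2% at each end, the mean of every array was 1000.34 to 1000.49, so the deposited intensities are scaled to a common mean. Array medians ran over 296.35 to 440.3, and the number of arrays limits the precision.

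Values were taken to log2(value + 50). The 64 control probe sets and those below the 40th percentile of the mean in a comparison were left out, which left 13576. Fits used limma 3.58.1 in R 4.3.3 with the data.table package, version 1.17.8, on the arrays of the 2 groups compared, with moderated tests and Benjamini-Hochberg adjustment over every tested probe set, called at 0.05. Differences between effects used 16, 24 or 18 arrays in 1 fit. Fits were checked on simulated data, where a 2-fold change was recovered for 65.1% of changed probe sets in KO tibialis, 53.1% in KO gastrocnemius, 74.2% in KO liver and 70.7% in GSL30 gastrocnemius. The changed probe sets were picked at random, with noise drawn independently for each array. These shares therefore do not apply to members of wide spread, such as Fdps in KO liver (log2 SD 2.13).

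Probe sets were named from the platform annotation, which gives 1 symbol for 20393, several for 691 and none for 1606. The members, the gene lists and the markers were chosen with earlier results of these data known. The text names all members, pathway genes called in a comparison (or with none called, up to 3 of smallest p), and the 3 genes outside the members most like each member. Correlations used exact permutation for 8 arrays and 100000 resamples for 10. Alternatives were other normalizations, pseudocounts and filters, all arrays in 1 fit, array weights, liver RNA as a covariate, subtracted or avoided, and leaving out each array. Leaving out arrays from the differences between effects and between WT groups, and the liver correlations without named arrays, were chosen after seeing the data. Some genes of the lists are not reported here, and promoters of Sqle, Fdps and Fdft1 were not analysed here.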

Additional observations from a re-analysis of the deposited data

Results flagged for a closer look

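Of 129 sets of values examined, each from a group of 4 or 5 arrays, 27 held 1 array set well apart from the others. For independent sets of normally spread values the rule would mark about 1 in 20, or 6.45. These sets share genes and arrays and were read on a linear scale, so their rate by chance is not known. KO liver replicate 1 accounted for 11 of the 27. It read 30835.5, 9205.5 and 8748.6 in 3 Hmgcs1 probe sets, 5913.5, 5502.1 and 322.3 in 3 Fdft1 probe sets, and 11091.6 and 2477.4 in the 2 Idi1 probe sets. In the same array Fdps read 21005.4, Sqle 5404 and Srebf1 4935.5. WT liver replicate 3 stood apart in Hmgcs1, with 11429, 3700.2 and 4235.9, and in Fdft1, with 2298.7. The third WT liver was also the highest WT liver for the tested probe sets of Fdps, Idi1 and Sqle, by a smaller gap relative to the group's range.

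WT liver replicate 4 read 2079.8 for the brighter Hsd17b7 probe set (1806.9 to 1845.3 in the other WT livers) and 264.9 for a dim Fdft1 probe set. In muscle, KO tibialis replicate 1 read 1842.8 for the brighter x_at probe set of Fdft1, GSL30 replicate 1 read 762.7 for the dimmer one, and WT gastrocnemius replicate 4 at 8 months read 3688.5 for the brightest Fdft1 probe set. The dim second Fdps probe set read 21.9 in KO tibialis replicate 4, 20.4 in WT gastrocnemius replicate 2 at 3 months and 20.6 in WT gastrocnemius replicate 5 at 8 months. WT gastrocnemius replicate 5 at 8 months was low for the brighter Hsd17b7 probe set at 505.4 (819.3 to 885.5 in the other WT arrays). WT tibialis replicate 3 read 169.5 for the dimmer Idi1 probe set, and WT tibialis replicate 2 read 986.9 for the brighter Srebf2 probe set. The liver share of WT gastrocnemius replicate 2 at 8 months was 2.70%, against 1.42 to 1.66% in the other WT arrays.

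For the brighter Hsd17b7 probe set the GSL30 effect minus the KO effect in gastrocnemius was 1.11 on the log2 scale and passed in limma as an interaction, but not without arrays of high liver RNA (adjusted p = 0.182). For the dimmer probe set, too dim to be tested in KO gastrocnemius, the same difference was 1.78, given without its test.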

How the results depend on the processing

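Among single member values, 1054 results of other settings kept direction and side of the threshold, 75 reversed, 11 lost a call and 9 gained one. Among counts and correlations, 203 stayed the same, 28 moved by over 1.5 times and 1 gained a call. The cause was not tested for those that changed, none of the reversed values had passed, and the number of arrays limits these fits. Probe sets of a gene are given from brightest to dimmest.

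With the liver share subtracted, KO gastrocnemius gave 0.79, 0.32, 0.48 and 0.054 for Hmgcs1, 0.010 for Fdps and 0.0067 for Hsd17b7, and GSL30 gave 0.0036 for Sqle. With the hepatocyte score in the fit, KO gastrocnemius gave 0.0021 for the Hmgcs1 x_at probe set, and GSL30 gave −0.12 for Fdft1, 0.21 for Srebf1 and 0 members called. Without arrays of high liver RNA, KO gastrocnemius gave −0.059 for the Fdft1 x_at probe set, and GSL30 gave −0.024 for Fdft1, 0.021 for Srebf1 and 0 called. In KO liver, array weights gave −0.30, −0.17 and −0.11 for Hmgcs1, −0.32 for Fdps, −0.0094 for the Fdft1 x_at probe set, −0.30 and −0.27 for Idi1 and 0.011 for the dimmer Hsd17b7 probe set. A common median gave −0.019 for Hmgcs1 and −0.00056 for Idi1, and quantile normalization and a pseudocount of 1 gave −0.013 and −0.014 for the dimmer Idi1 probe set. In GSL30, a common median gave −0.028 for Fdft1 and array weights 0.0041 for Sqle.

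The count of members called in KO tibialis was 1 with a filter at the 60th percentile. In GSL30 it was 2 with that filter, with a pseudocount of 200, with trended and robust eBayes and with array weights, and 0 with no filter. WT gastrocnemius minus WT tibialis gave 1 with all 34 arrays in 1 fit, and GSL30 minus KO gave 0 without arrays of high liver RNA and 0 with the liver share subtracted. Without the 2 arrays farthest from the median, 0 pairs of members correlated in tibialis, 3 in liver and 0 at 8 months, and 0 members correlated with the liver share. Without KO liver 1 and WT liver 3 it was 0 pairs in liver. With 12 hepatocyte marker genes in place of the liver probe sets, the liver share of GSL30 minus WT was −0.87 percentage points (exact permutation p = 0.0159).

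Leaving out 1 array at a time gave 0 to 3 members called in GSL30, 2 to 3 in WT gastrocnemius minus WT tibialis, 0 to 1 in WT 8 minus 3 months, 1 to 3 in GSL30 minus KO and, without KO liver 1, 0 correlated pairs in liver. In KO tibialis it gave −0.072 to 0.085 for the Hmgcs1 x_at probe set, −0.21 to 0.017 for Fdps and −0.37 to 0.069 for the Fdft1 probe set that follows its x_at one. In KO gastrocnemius it gave −0.43 to 0.0020 for the x_at and −0.25 to 0.0082 for the next Hmgcs1 probe set and −0.064 to 0.35 for the same Fdft1 one. In KO liver it gave −0.69 to 0.43, −0.53 to 0.41, −0.46 to 0.46 and −0.71 to 0.31 for Hmgcs1, −0.38 to 0.76 for Sqle, −0.89 to 0.68 for Fdps, −0.21 to 0.65 and −0.45 to 0.61 for Fdft1, −0.94 to 0.62 and −0.80 to 0.51 for Idi1, −0.17 to 0.12 and −0.020 to 0.24 for Srebf2 and −0.19 to 0.078 for the dimmer Hsd17b7 probe set. In GSL30 it gave −0.12 to 0.11 for Sqle, −0.024 to 0.11 for Fdft1 and −0.16 to 0.015 for Srebf2. No paired analysis was possible because the labels number the arrays of each tissue in 1 run across both groups, so no number is shared by the groups compared.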
